A study of Homo sapiens with 12 samples.

Results

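A set of 8 heat shock proteins and co-chaperones was followed across 3 human cancer cell lines and 4 transfections: HSPA6, DNAJB1, HSPH1, HSPA4, HSPB1, HSPD1, HSPE1 and BAG3. All probe sets whose annotation names 1 of these genes and no other were taken, which gave 19 probe sets for 8 genes, out of 41091 probe sets naming a single gene (19775 genes). The genes were picked because HSPA6 and DNAJB1 had been seen to differ in PC-3 cells transfected with oligonucleotides that form G-quadruplexes (G4, a stacked fold of guanine-rich strands). For these 2 genes, every value of G4 against control arrays is therefore a description without a test, and the values within single lines are given without a test for all 8 genes.

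The study transfected PC-3 (labelled a prostate cancer line), HBC4 (labelled a breast cancer line) and MKN74 (labelled a gastric cancer line) with AS1411, a G-rich DNA, or with (uuaggg)4, an RNA of telomeric repeat units, both G4 oligonucleotides. The controls were (uuaccc)4, an RNA in which the guanines are replaced by cytosines, and the transfection reagent alone. Every well held 300000 cells in a plate with a low-adhesion surface, was reverse transfected with Lipofectamine RNAiMAX, with about 100 pmol of oligonucleotide in the wells that received one, and was harvested at 72 h. There was 1 Affymetrix array for each line and treatment, 12 in all, and the labels name no further cultures, so the spread within a line is that between arrays of different treatments. Each probe set's values are on a log2 scale with the median over the 12 arrays at 0, so 1 unit is a doubling, a negative value lies below that probe set's own median, and neither absolute levels nor levels of different genes can be compared. These are bulk samples, in which fewer cells of a kind and less RNA per cell cannot be told apart.

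The lines were set against marker genes of their labelled tissue. The prostate marker HOXB13 averaged 4.76 in PC-3 and the breast markers ESR1 and SCGB2A2 averaged 3.24 and 1.08 in HBC4. The intestinal marker CDX2 averaged 1.34 in MKN74, but the gastric markers TFF1 and TFF2 were highest in PC-3, at 8.15 and 8.26, as was the breast marker FOXA1 at 5.39. Of the markers measured, 3 of 5 for prostate were highest in PC-3, without the prostate markers KLK2 and KLK3, 6 of 7 for breast in HBC4, and 4 of 9 for stomach and intestine in MKN74. The lines are therefore called by their names below.

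Heat shock proteins are chaperones: they hold unfolded proteins, help them to refold or pass them on for degradation. When unfolded proteins accumulate, the transcription factor HSF1 binds heat shock elements, runs of inverted GAA and TTC units, and switches on a set of chaperone genes. HSPA6 is an HSP70 that is little expressed without stress and strongly inducible in human cells, and DNAJB1 is an inducible J-domain partner that stimulates the ATPase of HSP70. HSPH1 and HSPA4 are HSP110 proteins that exchange the nucleotide of HSP70, BAG3 is another exchange factor that links HSP70 to selective autophagy, HSPB1 is a small heat shock protein that holds unfolded clients, and HSPD1 with its cap HSPE1 forms the chaperonin of the mitochondrial matrix.

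The promoter windows of the members are shown first because they differ in the heat shock units they carry. Windows of 300 bases, from 250 bases before to 50 bases from the transcription start, came from RefSeq (GRCh38.p14). All 8 genes matched, with 11 windows because DNAJB1 and HSPD1 have several starts. They were searched on both strands for GAANNTTC and TTCNNGAA, each its own reverse complement and free to overlap, and capitals mark the matches. Of all 35116 windows, 13.5% held at least 1 match and 1.71% at least 2.
HSPA6, chr1:161524290-161524589, plus strand: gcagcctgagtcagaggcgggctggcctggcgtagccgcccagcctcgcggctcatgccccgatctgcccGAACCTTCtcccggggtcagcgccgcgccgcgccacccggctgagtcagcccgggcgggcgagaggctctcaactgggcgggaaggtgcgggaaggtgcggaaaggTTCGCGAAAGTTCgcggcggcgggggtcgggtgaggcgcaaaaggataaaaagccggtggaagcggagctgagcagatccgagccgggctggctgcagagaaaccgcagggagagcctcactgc
DNAJB1, chr19:14518348-14518647, minus strand: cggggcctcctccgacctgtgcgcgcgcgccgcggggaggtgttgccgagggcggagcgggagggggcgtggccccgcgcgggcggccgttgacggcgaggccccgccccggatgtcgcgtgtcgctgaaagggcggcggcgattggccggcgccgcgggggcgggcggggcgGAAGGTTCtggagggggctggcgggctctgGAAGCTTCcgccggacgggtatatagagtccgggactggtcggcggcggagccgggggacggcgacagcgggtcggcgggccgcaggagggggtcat
HSPD1, chr2:197499791-197500090, minus strand: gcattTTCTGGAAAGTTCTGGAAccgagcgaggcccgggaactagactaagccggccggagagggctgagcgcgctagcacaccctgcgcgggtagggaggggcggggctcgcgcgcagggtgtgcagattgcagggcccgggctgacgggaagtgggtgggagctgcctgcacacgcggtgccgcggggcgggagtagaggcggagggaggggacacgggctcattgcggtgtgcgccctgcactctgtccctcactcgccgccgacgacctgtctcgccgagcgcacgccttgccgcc
HSPB1, chr7:76302423-76302722, plus strand: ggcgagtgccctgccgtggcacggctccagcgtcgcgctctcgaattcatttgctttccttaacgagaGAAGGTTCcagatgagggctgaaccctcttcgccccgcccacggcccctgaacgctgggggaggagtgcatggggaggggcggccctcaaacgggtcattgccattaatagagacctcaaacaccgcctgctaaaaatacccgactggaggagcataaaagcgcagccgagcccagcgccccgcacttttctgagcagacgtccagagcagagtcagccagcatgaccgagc
The HSPA6 window held 3 matches, beginning 180, 74 and 69 bases before the start. The last pair overlap as TTCGCGAAAGTTC, which makes 3 alternating units. The 3-unit form, in which either motif is followed by NNGAA or NNTTC so that the units alternate, was in 0.49% of all windows. The DNAJB1 window held 2 matches, 77 and 47 bases before the start, and another DNAJB1 window held 1. The HSPD1 window held 3 overlapping matches beginning 245, 240 and 235 bases before that start, which hold the 3-unit form 2 times, and the HSPB1 window held 1, at 182 bases. No match was found in the windows of HSPH1, HSPA4, HSPE1 and BAG3, which says only that these letters are not in those windows. HSPD1 and HSPE1 lie head to head on opposite strands, with the nearer pair of starts 105 bases apart, so that they share most of 1 window. That HSPD1 window held no match. The HSPD1 window shown above, with 3 matches, does not overlap the HSPE1 window, and its start lies 539 bases from that of HSPE1. A match is a description of letters and not of a bound factor.

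In PC-3 cells, HSPA6 had the largest G4 difference of all probe sets naming 1 gene. Probe set 213418_at stood at 0.86 with AS1411 and 0.66 with (uuaggg)4, against -1.66 with (uuaccc)4 and -1.76 with the reagent alone. Both G4 arrays lay far above both control arrays, and the arrays of a class differed by only 0.20 and 0.10. The difference of 2.47 log2 units, 5.54-fold, was rank 1 from the top of all 41091 probe sets in that line. The second HSPA6 probe set, 117_at, read 0.87 and 0.65 with AS1411 and (uuaggg)4, against -1.44 and -1.56 with (uuaccc)4 and the reagent alone. Its difference of 2.26, 4.80-fold, was rank 2. Whether these probe sets also read the closely related HSPA7 was not tested.

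**Figure D1:**
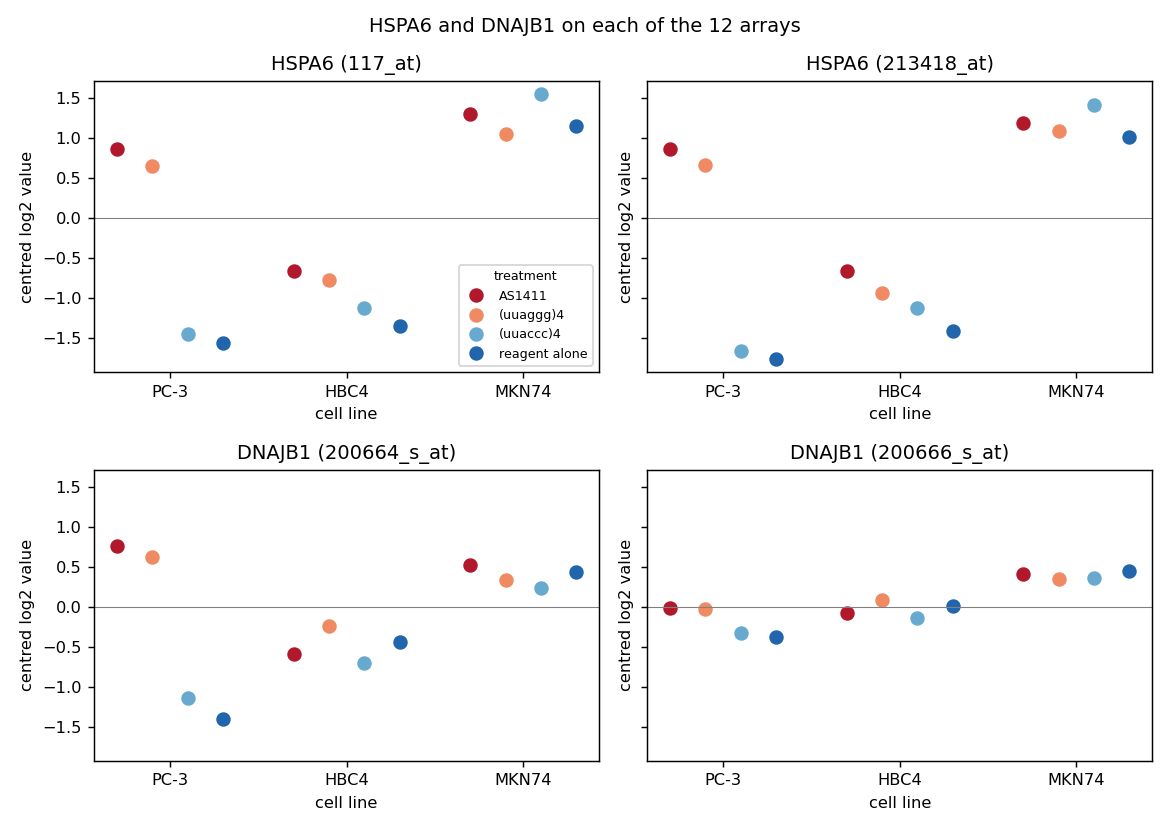
Centred log2 values (vertical axis) of the 2 HSPA6 and 2 DNAJB1 probe sets in each cell line (horizontal axis), with 1 point per array, coloured by treatment. In PC-3 the AS1411 and (uuaggg)4 points of HSPA6 and of DNAJB1 200664_s_at stand clear of the (uuaccc)4 and reagent points, while in MKN74 the 4 points of each probe set lie together; the G4 points of PC-3 lie under them for HSPA6 and above them for DNAJB1 200664_s_at.

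HBC4 showed the same order on a smaller scale. There 213418_at stood at -0.66 with AS1411 and -0.93 with (uuaggg)4, against -1.12 with (uuaccc)4 and -1.40 with the reagent alone. Again both G4 arrays were above both controls, on this probe set and on 117_at. The differences were 0.47 and 0.52, or 1.38-fold and 1.44-fold, at ranks 742 and 437 from the top of all 41091 probe sets. In HBC4, 25.9% of all probe sets had both G4 arrays above both controls, so that order alone says little. The 2 probe sets read 1 gene on the same arrays, and the higher HSPA6 values in HBC4 are a description without a test. The gap between the nearest G4 and control arrays was narrow, since the 2 control arrays differed by 0.28 and the 2 G4 arrays by 0.27 on 213418_at.

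In MKN74 the HSPA6 values were high with every treatment. Probe set 213418_at stood at 1.19 with AS1411 and 1.09 with (uuaggg)4, against 1.42 with (uuaccc)4 and 1.02 with the reagent alone. The G4 and control arrays overlapped, and the differences were -0.08 and -0.18 on the 2 probe sets. In PC-3 with G4 oligonucleotides, 213418_at stood at -0.41 relative to the MKN74 mean, 1.33-fold lower, whereas PC-3 controls were 7.38-fold below it. Thus the G4 arrays of PC-3 came near, but did not reach, the level at which MKN74 stood without any oligonucleotide: their highest value, 0.86, was under the lowest MKN74 value, 1.02.

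DNAJB1 followed HSPA6 in PC-3 on 1 of its 2 probe sets. On 200664_s_at it stood at 0.76 with AS1411 and 0.63 with (uuaggg)4, against -1.14 with (uuaccc)4 and -1.40 with the reagent alone. The difference was 1.96 log2 units, 3.90-fold, rank 5 from the top. On the other probe set, 200666_s_at, the corresponding values were -0.02, -0.03, -0.33 and -0.37. The direction was the same and the arrays did not overlap, but the difference was 0.33, or 1.26-fold, at rank 2052. Which probe set stands for the transcripts of DNAJB1 cannot be read from centred values, so the size of its difference in PC-3 depends on the probe set.

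In HBC4 and MKN74 the DNAJB1 arrays of the 2 classes overlapped. On 200664_s_at, HBC4 read -0.59 with AS1411 and -0.23 with (uuaggg)4, against -0.71 with (uuaccc)4 and -0.44 with the reagent alone, a difference of 0.16. MKN74 read 0.53 and 0.34 with AS1411 and (uuaggg)4, against 0.23 and 0.44 with (uuaccc)4 and the reagent alone, a difference of 0.10. The second probe set differed by 0.06 in HBC4 and -0.03 in MKN74. Unlike HSPA6, DNAJB1 therefore showed no separation of the classes in HBC4 on either probe set. On 200664_s_at the G4 arrays of PC-3 averaged 0.31 above the MKN74 mean, while the PC-3 controls averaged -1.65 against it. HSPA6 117_at and DNAJB1 200664_s_at correlated at 0.90 over the 12 arrays, which share lines and treatments, so this is a description only.

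The mitochondrial chaperonin HSPD1 had 5 probe sets, and they gave different pictures. On 241716_at, PC-3 stood at 0.49 with AS1411 and 0.23 with (uuaggg)4, against -0.57 with (uuaccc)4 and -1.05 with the reagent alone, a difference of 1.18 or 2.26-fold at rank 33. Only 0.11% of all probe sets differed by 1 log2 unit or more in that direction in PC-3. In MKN74 the same probe set was 0.20 and 0.64 with AS1411 and (uuaggg)4, against 1.13 and 0.41 with (uuaccc)4 and the reagent alone, and its arrays overlapped there and in HBC4.

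On 243372_at the HSPD1 difference was 0.73 in HBC4, 1.66-fold at rank 91, and 0.45 in PC-3. HBC4 read 0.36 and 0.12 with AS1411 and (uuaggg)4, against -0.33 and -0.65 with (uuaccc)4 and the reagent alone. The remaining 3 HSPD1 probe sets differed by -0.01 to 0.12 in PC-3 and by 0.26 to 0.39 in HBC4. In HBC4, then, 4 of the 5 HSPD1 probe sets had both G4 arrays above both controls, while in MKN74 1 did, 200807_s_at, with a difference of 0.12. The same held for 25.9% of all probe sets in HBC4 and 21.3% of all probe sets in MKN74.

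HSPE1, the cap of that chaperonin, was not higher with G4 oligonucleotides in PC-3. It stood at -0.13 with AS1411 and -0.15 with (uuaggg)4, against -0.01 with (uuaccc)4 and 0.01 with the reagent alone. All 4 values lay close together, with both G4 arrays below both controls. In MKN74 it stood at 0.82 and 0.65 with AS1411 and (uuaggg)4, against 0.45 and 0.61 with (uuaccc)4 and the reagent alone, and here both G4 arrays were above both controls. The difference of -0.14 in PC-3 thus stood beside 0.17 for HBC4 and 0.20 for MKN74.

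BAG3, the exchange factor, was slightly higher with G4 oligonucleotides in PC-3 and HBC4. In PC-3 it read -0.48 with AS1411 and -0.56 with (uuaggg)4, against -0.80 with (uuaccc)4 and -0.75 with the reagent alone, a difference of 0.25. In HBC4 it read 0.14 and 0.08 with AS1411 and (uuaggg)4, against -0.11 and -0.08 with (uuaccc)4 and the reagent alone, a difference of 0.20. The arrays of the 2 classes did not overlap in either line. Both G4 arrays lay above both controls for 25% of all probe sets in PC-3 and 25.9% in HBC4. The SD of the difference over all probe sets was 0.25 in PC-3 and 0.26 in HBC4, so both BAG3 differences are of ordinary size. In MKN74 they overlapped, and the difference was -0.09.

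The HSP110 genes and HSPB1 showed small differences between the classes in each line. For HSPA4, 208814_at read 0.45 and 0.65 in PC-3 with AS1411 and (uuaggg)4, against 0.90 and 0.92 with (uuaccc)4 and the reagent alone, a difference of -0.36. Its other 3 probe sets differed by 0.02 to 0.08 in PC-3. HSPH1 had a lowest difference of -0.39, on 208744_x_at in MKN74, and a highest of 0.14, on the same probe set in HBC4. HSPB1 differed by 0.15 in PC-3, by -0.12 in HBC4 cells and by -0.09 in MKN74 cells.

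**Figure D2:**
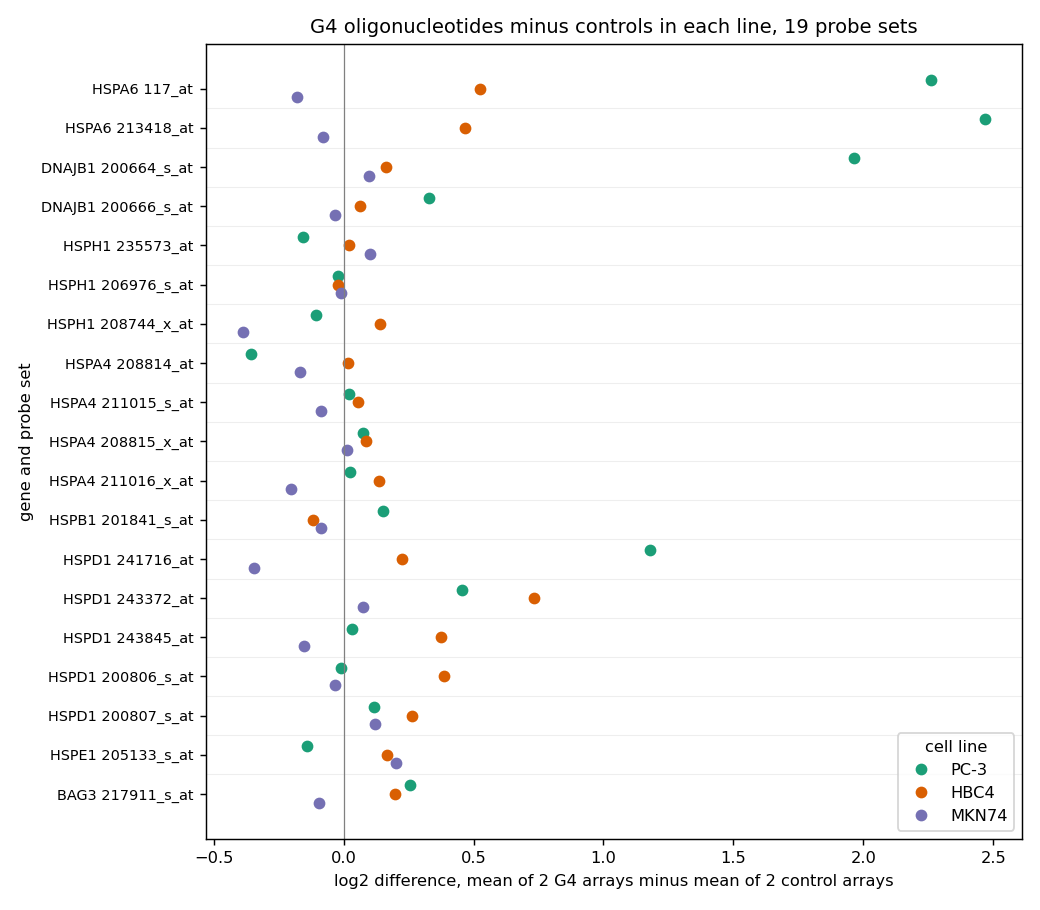
Difference of the G4 arrays from the control arrays (log2 units) for each of the 19 member probe sets, with 1 point per cell line. The HSPA6 probe sets, DNAJB1 200664_s_at and HSPD1 241716_at in PC-3 stand apart at 2.47, 2.26, 1.96 and 1.18, and the other points lie between -0.39 and 0.73.

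Counted over all 19 member probe sets, both G4 arrays of PC-3 lay above both controls for 11 and below both for 4, where 25% and 23.3% of all probe sets did so. For HBC4 the counts were 9 above and 0 below (25.9% and 20.6% of all probe sets). For MKN74 they were 2 above and 2 below (21.3% and 22% of all probe sets). Because the genes were picked on these values, nothing is read from the excess in PC-3. No line had all members moving 1 way.

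Averaged over the 3 lines, G4 oligonucleotides against controls was tested with limma for the 6 members that the choice did not rest on. None of their 15 probe sets passed an adjusted p of 0.05 (Benjamini-Hochberg over all 41091 probe sets), with 2 at an unadjusted p under 0.05, against a background of 2.14% of all probe sets (0.613% higher and 1.53% lower). The median difference of the 15 was 0.058, beside 0.014 over all probe sets. HSPD1 243372_at came nearest, at 0.42 with a standard error of 0.11 and a limma adjusted p of 0.0843. It was the only one of the 15 to pass under any alternative that was run, reaching a limma adjusted p of 0.0440 without MKN74 and 0.0209 without the AS1411 array of MKN74. HSPD1 200807_s_at differed by 0.17 (limma adjusted p 0.210), HSPA4 208814_at by -0.17 (0.302), and BAG3 by 0.12 (0.433).

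For HSPA6 the mean over lines was 0.95 ± 1.34 on 213418_at and 0.87 ± 1.26 on 117_at (SD, n = 3 lines), and for DNAJB1 200664_s_at it was 0.74 ± 1.06. In each case the spread between lines exceeded the mean, since PC-3 carried most of it. Without PC-3, HSPA6 117_at averaged 0.17.

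Set against 1 control, each G4 oligonucleotide gave the same picture for the 6 tested members. With (uuaggg)4 against (uuaccc)4, 0 of 15 probe sets passed, with 1 at an unadjusted p under 0.05 and a smallest limma adjusted p of 0.472 (background 0.217%). With AS1411 against the reagent alone, 0 of 15 passed, with 2 at an unadjusted p under 0.05 and a smallest limma adjusted p of 0.254 (background 0.465%). The reagent alone held no oligonucleotide and no control DNA was transfected. The G4 fold and the DNA itself therefore cannot be told apart in that comparison. On simulated data of this design over all 41091 probe sets, the G4 comparison recovered 96% of differences of 1 log2 unit that were the same in every line. Smaller differences and differences that vary between lines were not simulated, so the 96% does not cover those of the members.

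The 2 controls and the 2 G4 oligonucleotides were also compared with each other, for all 8 members. For (uuaccc)4 against the reagent alone, limma called 0 of 19 probe sets, none at an unadjusted p under 0.05 (background 0%). HSPA6 was still higher with (uuaccc)4 in every line, by 0.10, 0.28 and 0.41 on 213418_at in PC-3, HBC4 and MKN74. The G4 differences on the same probe set were 2.47 in PC-3, 0.47 in HBC4 cells and -0.08 in MKN74 cells, so the gap between the controls was small beside the first and not beside the others. For AS1411 against (uuaggg)4, limma called 0 of 19 probe sets, with 1 at an unadjusted p under 0.05, HSPH1 206976_s_at at 0.20 (background 0%). For HSPA6 117_at this difference was 0.19, with a 95% interval of -0.78 to 1.16, and for DNAJB1 200664_s_at it was -0.013, with an interval of -0.86 to 0.83. The intervals are wide, so these data do not show that the DNA and the RNA act alike on either gene.

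The cell lines differed far more widely than the treatments. Means of the 4 arrays of each line were compared, and a limma adjusted p of 0.05 was passed by 54.5% of all probe sets for PC-3 against HBC4, 58.8% for PC-3 against MKN74 and 50.5% for HBC4 against MKN74. Of the 19 member probe sets, 6 were higher and 2 lower in PC-3 than in HBC4, where 26.8% of all probe sets were higher and 27.7% lower. Against MKN74, 2 were higher and 14 lower in PC-3 (26.6% and 32.1% of all probe sets). In HBC4 cells, 3 were higher and 15 lower than in MKN74 (23.3% and 27.3% of all probe sets). MKN74 thus stood highest for most member probe sets. The counts with PC-3 include HSPA6 and DNAJB1, whose PC-3 means hold the G4 arrays that led to their choice. With control arrays alone, HSPA6 was lower in PC-3 than in HBC4, at -0.26 on 117_at and -0.44 on 213418_at, given without a test.

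**Figure D3:**
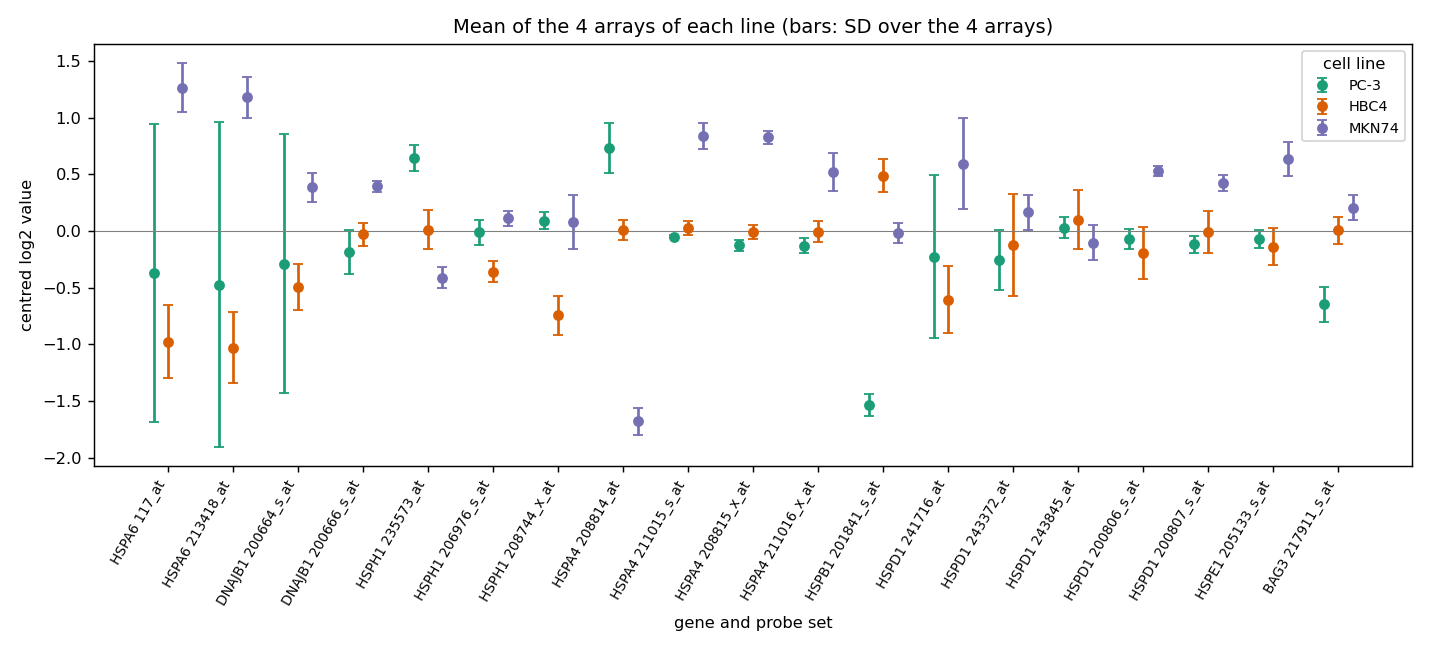
Mean centred log2 value of each of the 19 member probe sets in PC-3, HBC4 and MKN74, with bars for the SD over the 4 arrays of a line. HSPB1 is lowest in PC-3, at -1.54, HSPA6 is highest in MKN74, at 1.18 and 1.26, and HSPA4 208814_at runs opposite to the other HSPA4 probe sets.

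HSPB1, the small heat shock protein, differed between all 3 lines. It ranged from -1.65 to -1.42 over the 4 PC-3 arrays, from 0.39 to 0.70 in HBC4 and from -0.14 to 0.07 in MKN74, so no 2 lines overlapped. PC-3 was 4.06-fold lower than HBC4 (log2 difference -2.02, limma adjusted p 1.83e-09) and 2.86-fold lower than MKN74 (-1.52, 1.71e-08). HBC4 was 1.42-fold higher than MKN74 (limma adjusted p 0.000274). The order was HBC4, then MKN74, then PC-3, and the G4 difference within a line was between -0.12 and 0.15.

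BAG3 was also lowest in PC-3, where it ranged from -0.80 to -0.48, against -0.11 to 0.14 in HBC4 and 0.13 to 0.37 in MKN74. PC-3 differed from HBC4 by -0.65 (limma adjusted p 9.88e-06) and from MKN74 by -0.85 (7.93e-07). HBC4 and MKN74 touched at 0.14 and 0.13. Their difference of -0.20 passed at a limma adjusted p of 0.0357 but not after quantile normalization (0.0719), so these neighbours are not clearly separated.

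HSPA6 and DNAJB1 were highest in MKN74 by the line means. HSPA6 117_at averaged -0.37 ± 1.31 over the PC-3 arrays, -0.97 ± 0.32 over the HBC4 arrays and 1.26 ± 0.22 over the MKN74 arrays (SD, n = 4). HBC4 was 4.72-fold lower than MKN74 (limma adjusted p 7.65e-09). PC-3 differed from MKN74 by -1.63, given without a test since the G4 arrays in its mean led to the choice of HSPA6. The PC-3 mean joins control arrays at -1.50 with G4 arrays at 0.76, and this decides where it stands against HBC4. Over all 4 arrays PC-3 was 0.60 above HBC4 on 117_at, also given without a test. Over the control arrays alone the difference was -0.26, again without a test, since the PC-3 controls were the other side of that choice. For 213418_at the corresponding differences were 0.56 and -0.44, and for DNAJB1 200664_s_at they were 0.21 and -0.69. With control arrays alone, DNAJB1 200664_s_at was lowest in PC-3 by value, and 200666_s_at stood at -0.29 against HBC4. Neither is given with a test, since the control arrays of PC-3 were part of the choice of DNAJB1.

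The mitochondrial chaperonin was highest in MKN74 for both subunits. HSPE1 ranged from 0.45 to 0.82 in MKN74, above every array of PC-3 (-0.15 to 0.01) and of HBC4 (-0.30 to 0.09). It differed by -0.70 in PC-3 (limma adjusted p 2.08e-05) and by -0.77 in HBC4 (1.17e-05) from MKN74, while PC-3 and HBC4 overlapped and differed by 0.066 (0.550). HSPD1 200806_s_at showed the same order, at -0.60 in PC-3 and -0.72 in HBC4 against MKN74. Of the 5 HSPD1 probe sets, 4 were lower in PC-3 than in MKN74 past the threshold, and 243845_at, at 0.13, did not pass.

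For the HSP110 genes the probe sets disagreed. HSPA4 208814_at was 5.31-fold higher in PC-3 than in MKN74 (limma adjusted p 2.26e-10) and ranged from -1.79 to -1.51 in MKN74. The other 3 HSPA4 probe sets were lower in PC-3 than in MKN74, at -0.95 to -0.65, and all 3 passed. HSPH1 235573_at was 1.05 higher in PC-3 than in MKN74, whereas 208744_x_at and 206976_s_at differed by 0.012 and -0.12 and did not pass. What each probe set detects was not tested, and no order of the lines can be given for HSPA4. All 3 HSPH1 probe sets were higher in PC-3 than in HBC4, by 0.35 to 0.83.

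The wider chaperone network was read from a list of 68 further genes, of which 60 had a probe set naming them alone. HSF2, HSPA1A, HSPA1B and HSPA8 were among those unnamed here, so the principal inducible and constitutive HSP70 genes give no value. For G4 oligonucleotides against controls over the 3 lines, 0 of the 60 passed limma, beside 2.14% of all probe sets, with 16 at an unadjusted p under 0.05, and their median was 0.077 beside 0.014 over all probe sets. HSF1, the regulator, differed by 0.092 (limma adjusted p 0.552), HSPA5, the HSP70 of the endoplasmic reticulum, by -0.0099 (0.954), and HSP90AA1, the inducible HSP90, by 0.037 (0.790). The smallest limma adjusted p was 0.0568, for the small heat shock protein HSPB7 at 0.29, whose other probe set gave -0.19. TRAP1, the mitochondrial HSP90, differed by 0.28 (0.0598) and the J-domain protein DNAJA1 by -0.29 (0.0719). The largest difference that did not pass was that of CHORDC1, an HSP90 partner, at 0.40 (0.152), followed by HMOX1, haem oxygenase, at -0.36 (0.427).

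**Figure D4:**
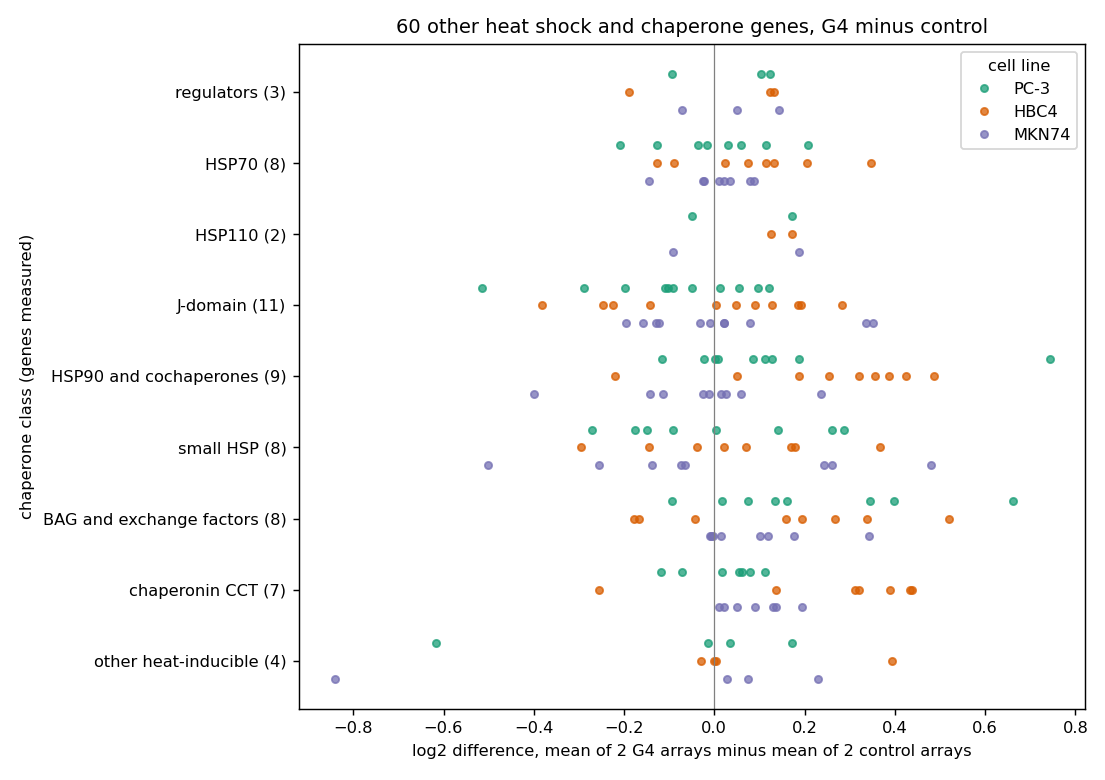
Difference of the G4 arrays from the control arrays (log2 units) for the 60 measured genes of the chaperone list, by class of chaperone and cell line, with 1 point per gene and line. Most points lie near 0 in all 3 lines, and all lie between -0.84 and 0.74, short of the 2.26 and 1.96 seen for HSPA6 and DNAJB1 in PC-3.

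Within PC-3, 1 of the 60 passed limma, and it was lower: 1.67% of the list beside 1.54% of all probe sets (1.01% lower). In this test the spread is that between different treatments of a class, with no repeat culture. DNAJA1, a J-domain co-chaperone of HSP70, read -0.37 with AS1411 and -0.40 with (uuaggg)4, against 0.07 with (uuaccc)4 and 0.19 with the reagent alone. It fell by 0.51 on the log2 scale (limma adjusted p 0.0262), a call lost in 4 of the 12 fits that leave out 1 array (highest p 0.207) and not made on its second probe set (-0.34, 0.110). So in the line where the J-domain gene DNAJB1 was higher with G4 oligonucleotides, DNAJA1 was lower. Lower DNAJA1 values were not restricted to PC-3: the difference was -0.22 in HBC4 and -0.13 in MKN74, neither passing (limma adjusted p 0.270 and 0.619). Both G4 arrays of PC-3 lay above both controls for 20 of the 60 genes and below both for 13, beside 25% and 23.3% of all probe sets, and the class counts that follow are parts of these. Of the 11 J-domain genes on the list, 1 had both G4 arrays of PC-3 above both controls and 5 had them below. The 8 BAG and exchange factor genes had 5 above and 0 below, with a median of 0.15; BAG1 differed by 0.66 (limma adjusted p 0.0680), with 0.53 and -0.17 on its other probe sets. The 8 HSP70 genes of the list, HSPA6 not among them, had 1 above and 2 below, with a highest difference of 0.21.

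Within HBC4, 4 of the 60 passed and all were higher: 6.67% of the list beside 2.29% of all probe sets (0.91% higher). BAG2, a co-chaperone of HSP70, read -2.05 with AS1411 and -2.18 with (uuaggg)4, against -2.55 with (uuaccc)4 and -2.72 with the reagent alone, a rise of 0.52 (limma adjusted p 0.0292). CCT7 and CCT3, subunits of the cytosolic chaperonin that folds actin and tubulin, rose by 0.43 (0.0305) and 0.44 (0.0336), and TRAP1 rose by 0.43 (0.0499), though its other probe set gave -0.11. Both G4 arrays lay above both controls for 6 of the 7 measured CCT genes and for 7 of the 9 HSP90 and partner genes in HBC4. Over the whole list this held for 33 of the 60 genes, with 6 below, beside 25.9% and 20.6% of all probe sets. The CCT genes had 5 above and 0 below in MKN74 and 3 above and 1 below in PC-3. HSP90 and partner genes had 1 above and 3 below in MKN74 and 5 above and 1 below in PC-3. The BAG and exchange factor genes had 5 above and 1 below in HBC4, 4 and 0 in MKN74, and 5 and 0 in PC-3. Higher values in the CCT and BAG classes were thus not particular to 1 line. All probe sets stood at 21.3% above and 22% below in MKN74 and at 25% and 23.3% in PC-3. These calls are marginal: leaving out 1 array ended that of TRAP1 in 12 of 12 fits, of CCT3 in 8, and of CCT7 and BAG2 in 6 each. With probe sets averaged per gene, BAG2 (0.151) and TRAP1 (0.305) were also lost. The p-values within a line rest on the spread between different treatments of a class, with no repeat culture, and do not measure replication.

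Within MKN74, 0 of the 60 passed limma, with 9 at an unadjusted p under 0.05 and a smallest limma adjusted p of 0.136, beside 1.16% of all probe sets. The test of whether the G4 difference varied between lines called 0 of the 60, with 12 at an unadjusted p under 0.05 and a smallest limma adjusted p of 0.190, beside 0.720% of all probe sets. A difference between lines in the chaperone list was therefore not shown, although single genes passed in PC-3 or HBC4 and not in the other.

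Between lines, limma called 36 of the 60 (60%) for PC-3 against HBC4, 45 (75%) for PC-3 against MKN74 and 39 (65%) for HBC4 against MKN74, beside 54.5%, 58.8% and 50.5% of all probe sets. In HBC4 and PC-3 alike, 27 were lower than in MKN74, against 12 and 18 higher. HSPA2, an HSP70 known from the testis, differed by -4.75 in HBC4 against MKN74 (limma adjusted p 1.79e-12) and by 3.43 in PC-3 against HBC4 (1.89e-11). CRYAB, a small heat shock protein like HSPB1, differed by -1.69 in PC-3 against MKN74 (1.63e-08).

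A ranking by likeness left out the members and took 1 probe set per gene. It sought the genes whose deviations from their line mean followed the mean of HSPA6 and DNAJB1 most closely over the 12 arrays. Among 669 genes whose values spanned at least 1 log2 unit in some line, they were ENO1 on probe set 240258_at (enolase, Pearson r 0.98), ROR1 (a receptor tyrosine kinase, 0.96), CREB3L2 (a stress-sensing transcription factor of the endoplasmic reticulum, 0.96), CCL26 (a chemokine, 0.96) and BHLHE40 (a transcriptional repressor, 0.95). Their differences in PC-3 were 2.09, 1.42, 1.49, 0.99 and 2.20, and in HBC4 and MKN74 they were -0.18 to 0.30. The Spearman correlations, in the same order, were 0.92, 0.90, 0.66, 0.89 and 0.76. HSF2, HSPA1A, HSPA1B and HSPA8 are unnamed here and could not appear in the ranking. Most genes of the chaperone list spanned less than 1 log2 unit in every line, so they could not appear either. The ranking therefore does not show whether other chaperones follow HSPA6 and DNAJB1. Among the members, HSPD1 241716_at followed with r = 0.82 and BAG3 with 0.72, whereas HSPA4 208814_at ran opposite at -0.77. The other probe sets of these genes did not follow as closely: the other 4 of HSPD1 had r between 0.097 and 0.57, and the other 3 of HSPA4 between 0.13 and 0.51. These correlations rest on 12 arrays that share lines and treatments, and describe likeness only.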

How the data were processed

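Expression was measured on 12 arrays, 1 per cell line and treatment. The deposited values are log2 expression values for which the submitters' processing notes name RMA, with no version. In the table the authors deposited, all 54675 probe sets are centred on a median of 0 (largest departure 5e-07). The centring step is not given in the sources used here, and base 2 was taken because RMA gives log2 values and the highest value is 11.2. Detection and level are therefore unknown, and the number of arrays limits the precision.

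Of the probe sets, 62 were array controls, 1801 named several genes, 11721 are unnamed here and 41091 named 1 gene and were tested. Of those, 41037 matched RefSeq GRCh38.p14 by gene identifier and 0 symbols changed. The linear models came from limma 3.58.1 (R 4.3.3), with Benjamini-Hochberg adjustment and a threshold of 0.05. Treatments were compared with treatment and cell line as terms. Cell line is the replicate block, since the same replicate number in each treatment is the same line per the labels; within a line, deviations from the treatment means had correlations of at least 0.931. Lines, and G4 against control within a line, were compared with an oligonucleotide class term per line, so that 2 arrays of a class give the spread. That spread is between different treatments, with no repeat culture. A list gene was represented by 1 probe set, chosen by suffix and number without regard to values. Per comparison, up to 6 list genes past the threshold and the 3 largest that did not pass could be named, besides HSF1, HSF2, HSPA1A, HSPA1B, HSPA8, HSPA5 and HSP90AA1. The rule for likeness took the 5 genes with the highest r. The members and lists were chosen with earlier results of these data known. The fit was tested on simulated data. Alternatives were quantile normalization, all probe sets, averaged probe sets, removal of low-range probe sets, a robust prior, no block, fewer arrays and, added after seeing the data, line comparisons over control arrays.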

Additional observations from a re-analysis of the deposited data

Results flagged for a closer look

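HSPE1, the cap of the mitochondrial chaperonin, moved in opposite directions in 2 lines: both G4 arrays lay below both controls in PC-3 (difference -0.14) and above both controls in MKN74 (0.20). The 2 differences lie 0.342 log2 units apart, and this difference was not tested. Of all probe sets, 23.3% had both G4 arrays below both controls in PC-3 and 21.3% had them above both in MKN74. The SD of the difference over all probe sets was 0.25 in PC-3 and 0.22 in MKN74, so both HSPE1 differences are of ordinary size.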

How the results depend on the processing

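The 15 member probe sets tested for G4 oligonucleotides against controls stayed short of the threshold in all but 2 of 303 alternative results, both for HSPD1 243372_at. Without the replicate block, 0 probe sets were called for G4 oligonucleotides against controls, 0 for (uuaggg)4 against (uuaccc)4 and 0 for AS1411 against the reagent alone, beside 879, 89 and 191 with it. Quantile normalization gave 40 and 117 calls for the last 2 comparisons, 404 within PC-3 (634 as deposited) and 2226 within HBC4 (940 as deposited), where the split of higher and lower calls was 1134 and 1092 against 374 and 566. Averaging probe sets per gene, which tests fewer features, gave 516, 40 and 103 calls for the 3 treatment comparisons, 11696, 12450 and 10679 for PC-3 against HBC4, PC-3 against MKN74 and HBC4 against MKN74, and 369 within PC-3. Fitting only the arrays compared gave 35 and 36 for (uuaggg)4 and AS1411 against their controls. Leaving out a line gave 79 (HBC4), 213 (PC-3) or 341 (MKN74) calls for G4 oligonucleotides against controls, 4 to 84 for (uuaggg)4 and 12 to 136 for AS1411 against their controls; leaving out 1 array gave 363 to 680, 16 to 87 and 58 to 174, 228 to 605 within PC-3, 280 to 777 within HBC4, 158 to 398 within MKN74 and 99 to 193 for the test of variation between lines (296 with all arrays). No probe set was called for (uuaccc)4 against the reagent alone or AS1411 against (uuaggg)4 under any left-out array. Some signs reversed. For G4 oligonucleotides against controls, HSPH1 235573_at became 0.0098 with quantile normalization, and HSPA4 was 0.058 on 208815_x_at. With averaged probe sets HSPA4 became -0.021 (PC-3 against MKN74) and -0.12 (HBC4 against MKN74), and HSPH1 became -0.29 (HBC4 against MKN74). With control arrays only, PC-3 against HBC4 became -0.26 and -0.44 for HSPA6, -0.69 for DNAJB1 200664_s_at and -0.096, 0.0085 and 0.10 for HSPD1 241716_at, 243372_at and 243845_at; HSPH1 208744_x_at became -0.13 (PC-3 against MKN74) and HSPD1 243845_at -0.059 (HBC4 against MKN74). Across left-out lines and arrays, the G4 difference spanned 0 for HSPH1 235573_at (-0.073 to 0.062) and 208744_x_at (-0.25 to 0.017), HSPA4 211015_s_at (-0.034 to 0.038) and 211016_x_at (-0.089 to 0.081), HSPB1 (-0.10 to 0.032), and HSPD1 241716_at (-0.060 to 0.70), 243845_at (-0.059 to 0.20) and 200806_s_at (-0.022 to 0.19). So did the difference of PC-3 from HBC4 for HSPD1 243845_at (-0.15 to 0.015) and HSPE1 (-0.0075 to 0.14), and of PC-3 from MKN74 for HSPH1 208744_x_at (-0.031 to 0.054). The cause was not tested.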
